A study of Mus musculus with 21 samples.

Results

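The BCL2 family of apoptosis regulators was followed through 10 genes in B cell precursors that carried BCR-ABL1, C-MYC or an empty vector (EV). The genes were chosen by name and are Bcl2, Bcl2l1, Mcl1, Bcl2l11, Bbc3, Pmaip1, Bax, Bak1, Bid and Bmf. They are 10 of the 24421 genes in the deposited tables, and all 10 were among the 12786 genes with enough reads to test. The cells were bone marrow-derived B cell precursors of C57BL/6 mice that lack the DNA repair factor 53BP1, so the EV controls carry the 53BP1-/- genotype as well. They were grown with IL-7 and transduced with the MIGR1 retroviral vector, which was empty, encoded the human p210 form of the BCR-ABL1 kinase, or encoded mouse C-MYC. Cells were harvested 7 to 9 days after transduction and depleted of dead and apoptotic cells, and the sources used here state no sort for transduced cells. Poly(A) RNA was sequenced from 2 libraries for each of the 3 conditions, and the sources describe these as duplicate experiments without saying whether mice were shared, so the p-values measure the spread between these libraries. The values therefore describe the cells that were left after apoptotic cells had been removed.

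The family decides whether the outer mitochondrial membrane stays intact. The effectors BAX and BAK form pores through which cytochrome c leaves, the pro-survival proteins BCL2, BCL-XL and MCL1 hold them in check, and BH3-only proteins such as BIM, PUMA, NOXA, BMF and BID bind the pro-survival proteins or the effectors. Early B cells depend on this balance, since IL-7 sustains MCL1 and BCL2 while BIM removes precursors that lose their signals.

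Between 20687092 and 24095955 reads were counted per library. Myc, measured as a check of the labels, had 27450 and 37920 counts in C-MYC, 7239 and 8381 counts in BCR-ABL1 and 3277 and 3869 counts in EV. The BCR-ABL1 transgene was not measured here. Markers of B cell precursors were abundant in all 6 libraries, and the 10 listed markers, among them Cd79a, Pax5 and Ebf1, summed to between 3131 and 6199 CPM (the count of a gene relative to the library's total, scaled by TMM). The EV libraries stood apart in other markers. The sum of 10 myeloid markers such as Lyz2 and Mpo was 1264 and 1112 CPM in EV, 140 and 157 CPM in BCR-ABL1 and 191 and 327 CPM in C-MYC. The 8 T and NK cell markers summed to 138 and 102 CPM in EV and to no more than 8.48 CPM elsewhere. The 6 stromal markers summed to 103 and 157 CPM in EV and to no more than 6.02 CPM elsewhere, and the 8 erythroid and platelet markers to 34.9 and 44.5 CPM in EV and to no more than 11.8 CPM elsewhere, while the globin genes Hba-a1, Hbb-bs and Hbb-bt had 0 counts in every library, although Hbb-bs and Hbb-bt are listed with FPKM of up to 0.301 on average in a condition. All 10 myeloid and all 8 T and NK cell markers were lower than in EV with either oncogene. Every difference from EV given for the family runs alongside these marker differences, and their part in the result was not tested. In bulk RNA, fewer cells of a type and less RNA per cell cannot be told apart.

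**Figure D1:**
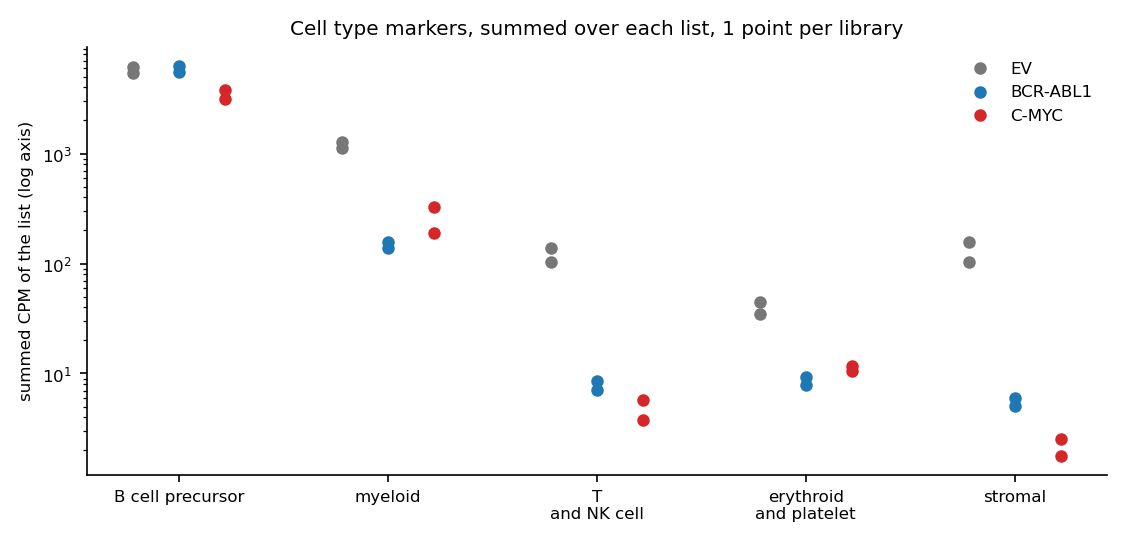
Summed CPM of 5 lists of cell type markers (log axis), with 1 point for each library. Both EV points lie above all oncogene points for the myeloid, T and NK cell, erythroid and platelet, and stromal lists, and both C-MYC points (3767 and 3131) lie lowest for the B cell precursor list.

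Known binding motifs of C-MYC, FOXO factors and STAT5 were looked up in the promoters of these genes. The motif of p53, named below as a regulator of Pmaip1 and Bbc3, was not searched. Stretches of 250 bases before to 50 bases after annotated starts were taken from RefSeq (GRCm38.p6). Promoters on the chromosome of Pmaip1 were left out of the search. The other 9 genes had 16 promoters in all, some of them overlapping. The motifs were searched on both strands. The E-box CACGTG, which C-MYC binds with its partner MAX, was present in 2 of the 16 promoters and in 7.15% of all 32851 promoters searched. The FOXO motif GTAAACA was present in 2 of 16 and in 3.65% of all, and the STAT5 motif TTCNNNGAA in 0 of 16 and in 8.30% of all. The windows that hold a match are shown because C-MYC is an oncogene of this study and FOXO factors act on Bcl2l11 and Bbc3 in lymphocytes. The motif is in capitals, on either strand, and a match is a description of the letters and not of binding.
Bax, E-box, chr7:45466890-45466919 (- strand), first base of the motif at position -9 from the start: agcgatgatgatCACGTGactagtcctgcg
Bax, E-box, chr7:45466849-45466875 (- strand), position 35: ttgcggggcaccCACGTGagggccgca
Bbc3, E-box, chr7:16310355-16310384 (+ strand), position -64: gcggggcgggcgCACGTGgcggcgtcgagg
Bbc3, FOXO, chr7:16310083-16310112 (+ strand), position -167: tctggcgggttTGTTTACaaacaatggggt
Bcl2l11, FOXO, chr2:128125800-128125829 (+ strand), position -227: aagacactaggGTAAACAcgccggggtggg

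The first question was how the pro-survival genes differed between the conditions. Bcl2l1, which encodes BCL-XL, was highest in EV, lower in BCR-ABL1 and lowest in C-MYC. Bcl2 was lowest in C-MYC, and Mcl1 moved least of the 3 genes.

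Bcl2l1 (chr2:152780668-152831728, - strand, GRCm38) was at 133 and 206 CPM in EV, 83.9 and 61.5 CPM in BCR-ABL1, and 29.97 and 27.4 CPM in C-MYC. No library of any condition overlapped with those of another, although the EV libraries lay far apart. Bcl2l1 was 2.33-fold lower in BCR-ABL1 than in EV (log2 fold change -1.22, SE 0.23, adjusted p = 0.0102). Here and below, an adjusted p is that of the quasi-likelihood test of edgeR with the Benjamini-Hochberg method over all genes tested, unless another test is named. It was 5.91-fold lower in C-MYC than in EV (-2.56, SE 0.24, adjusted p = 0.000365) and 2.53-fold lower in C-MYC than in BCR-ABL1 (-1.34, SE 0.23, adjusted p = 0.00693). The fall in C-MYC against EV was called with any library left out. The fall in BCR-ABL1 against EV was not called without BCR-ABL1 replicate 2 (adjusted p = 0.0788), and that between the oncogenes was not called without BCR-ABL1 replicate 1 (0.0549) or C-MYC replicate 2 (0.0624).

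Bcl2 (chr1:106538178-106714274, - strand), the founding member of the family, was at 64.6 CPM in both EV libraries, at 78.5 and 101 CPM in BCR-ABL1, and at 28.1 and 30.4 CPM in C-MYC. The C-MYC libraries were lowest and the BCR-ABL1 libraries highest, without overlap. Bcl2 was 2.21-fold lower in C-MYC than in EV (-1.14, SE 0.15, adjusted p = 0.00104) and 3.07-fold lower than in BCR-ABL1 (-1.62, SE 0.15, adjusted p = 0.000899). Both differences were called with any library left out. The difference between BCR-ABL1 and EV was 0.48 on the log2 scale (95% interval 0.14 to 0.82) and was not called (adjusted p = 0.064). DESeq2's test (adjusted p = 0.0239) and edgeR without a filter on low counts (0.042) did call it. An antisense gene, D630008O14Rik, shares 6.09% of the exon bases of Bcl2, and with no stated strand setting its reads cannot be told apart there.

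Mcl1 (chr3:95658788-95663176, + strand) encodes a short-lived pro-survival protein that lymphocyte precursors need. It was at 422 and 418 CPM in EV, 348 and 382 CPM in BCR-ABL1, and 334 and 325 CPM in C-MYC. The order was EV, BCR-ABL1, C-MYC without overlap, over a narrow range. Mcl1 was 1.28-fold lower in C-MYC than in EV (-0.35, SE 0.10, adjusted p = 0.0201). This call was lost without BCR-ABL1 replicate 1 (adjusted p = 0.0532) or 2 (0.0544), without C-MYC replicate 1 (0.0713) or 2 (0.0896), and in a fit of only the 4 libraries compared (0.08). The differences were -0.20 between BCR-ABL1 and EV (95% interval -0.42 to 0.02) and -0.15 between C-MYC and BCR-ABL1 (-0.37 to 0.07), neither of which was called. Of 5 measured genes for enzymes that attach or remove ubiquitin on MCL1 or its relatives, such as Huwe1, Fbxw7 and Usp9x, 0 were called in any comparison, by edgeR, with 0 at an unadjusted p below 0.05 and 0 called by DESeq2 or limma. Of all genes, edgeR called 17% in BCR-ABL1 against EV, 43.1% in C-MYC against EV and 23.4% between the oncogenes.

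**Figure D2:**
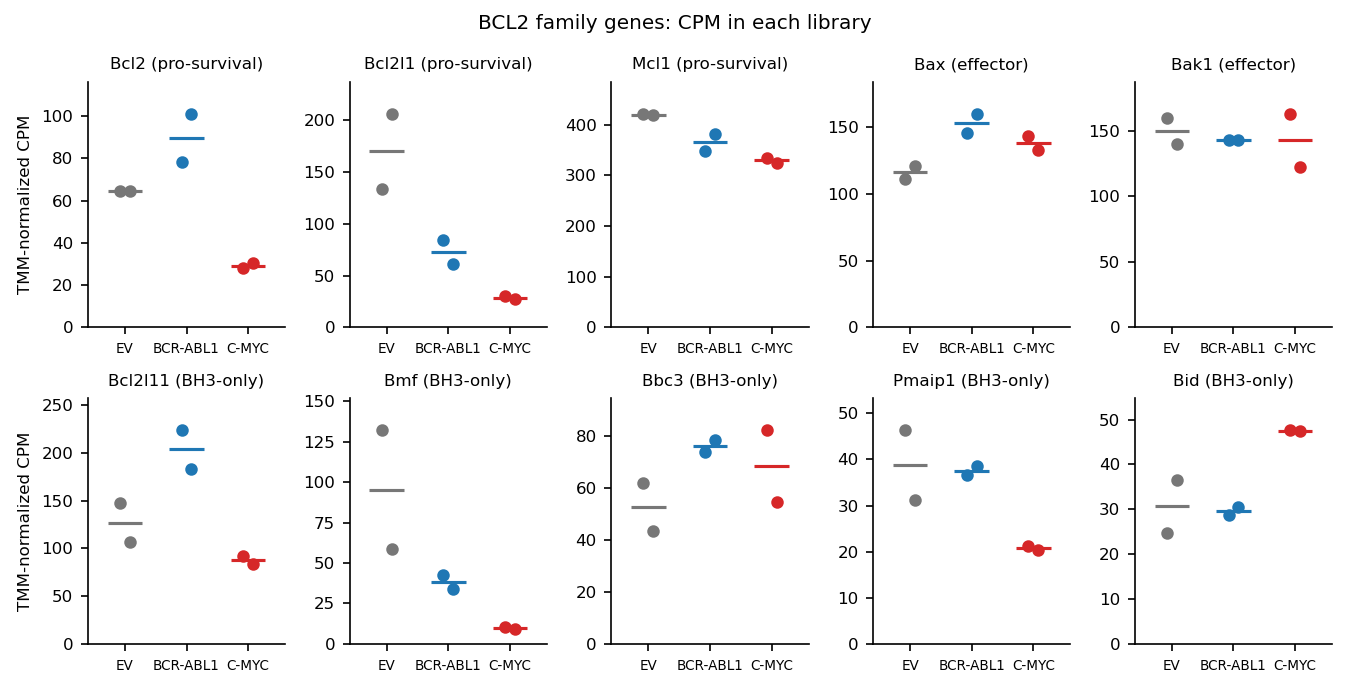
TMM-normalized CPM of the 10 genes, with 1 panel per gene, 1 point per library and a line at the condition's mean. Each axis starts at 0. Bcl2l1 and Bmf step down from EV to BCR-ABL1 to C-MYC, Bcl2l11 and Bcl2 are highest in BCR-ABL1 and lowest in C-MYC, and the 3 conditions overlap for Bak1.

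Among the BH3-only genes, Bmf and Pmaip1 were lowest in C-MYC, Bid was highest in C-MYC, and Bcl2l11 lay on opposite sides of EV in the oncogene conditions.

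Bcl2l11 (chr2:128126038-128162547, + strand) encodes BIM, which binds all pro-survival members and is needed for the deletion of lymphocytes. It was at 147 and 107 CPM in EV, 224 and 183 CPM in BCR-ABL1, and 92.3 and 84.2 CPM in C-MYC. The BCR-ABL1 libraries were highest and the C-MYC libraries lowest, without overlap. Bcl2l11 was 2.31-fold lower in C-MYC than in BCR-ABL1 (-1.21, SE 0.17, adjusted p = 0.00384), and this difference was called with any library left out. It was 1.60-fold higher in BCR-ABL1 than in EV (0.68, SE 0.17, adjusted p = 0.0328) and 1.44-fold lower in C-MYC than in EV (-0.52, SE 0.17, adjusted p = 0.0415). The calls against EV were less stable. The rise in BCR-ABL1 was lost without EV replicate 2 (adjusted p = 0.0532), BCR-ABL1 replicate 1 (0.208) or 2 (0.0798), or C-MYC replicate 1 (0.0603) or 2 (0.06), by limma with either pseudocount (0.0725 and 0.0716) and in the fit of only the 4 libraries compared (0.0715). The fall in C-MYC was lost without EV replicate 1 (0.164), BCR-ABL1 replicate 1 (0.0573) or 2 (0.0603), or C-MYC replicate 1 (0.113) or 2 (0.189), and the log2 fold change without EV replicate 1 was -0.27. It was also lost with DESeq2 size factors (0.058) and in the fit of 4 libraries (0.08).

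Bmf (chr2:118528757-118549687, - strand) encodes a BH3-only protein first tied to loss of attachment and to the cytoskeleton. It was at 132 and 58.4 CPM in EV, 42.9 and 34.0 CPM in BCR-ABL1, and 10.8 and 8.98 CPM in C-MYC. The conditions did not overlap, but the EV libraries lay further from each other than EV replicate 2 lay from BCR-ABL1. Bmf was 9.65-fold lower in C-MYC than in EV (-3.27, SE 0.37, adjusted p = 0.000618), the widest difference among the 10 genes in any comparison, and it was called with any library left out. Without EV replicate 1 the log2 fold change was -2.56. It was 3.89-fold lower in C-MYC than in BCR-ABL1 (-1.96, SE 0.36, adjusted p = 0.00855), a call lost without BCR-ABL1 replicate 1 (adjusted p = 0.0555) or C-MYC replicate 1 (0.0537) or 2 (0.0774). It was 2.48-fold lower in BCR-ABL1 than in EV (-1.31, SE 0.34, adjusted p = 0.0362). That call was lost without BCR-ABL1 replicate 1 (adjusted p = 0.107) or 2 (0.21) or C-MYC replicate 1 (0.0685) or 2 (0.0681), by limma (0.0832 and 0.0803) and in the fit of 4 libraries (0.0725), and without EV replicate 1, the higher library, the log2 fold change was -0.60.

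Pmaip1, which encodes NOXA, a partner of MCL1 and a p53 target, was at 46.4 and 31.2 CPM in EV, 36.5 and 38.5 CPM in BCR-ABL1, and 21.2 and 20.4 CPM in C-MYC. The C-MYC libraries lay below all others, and the BCR-ABL1 libraries lay between the EV libraries. Pmaip1 was 1.86-fold lower in C-MYC than in EV (-0.90, SE 0.19, adjusted p = 0.0079) and 1.80-fold lower than in BCR-ABL1 (-0.85, SE 0.19, adjusted p = 0.0184). The former was lost without C-MYC replicate 1 (adjusted p = 0.0511) or 2 (0.0566), and the latter without BCR-ABL1 replicate 1 (0.0982) or 2 (0.101) or C-MYC replicate 1 (0.0927) or 2 (0.114). Between BCR-ABL1 and EV the difference was -0.05 (95% interval -0.49 to 0.40).

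Bid (chr6:120891930-120916853, - strand), whose protein is cut by caspase-8 and links death receptors to mitochondria, was at 24.7 and 36.6 CPM in EV, 28.8 and 30.5 CPM in BCR-ABL1, and 47.7 and 47.4 CPM in C-MYC. Only the C-MYC libraries stood apart, above the other 4. Bid was the only one of the 10 genes called higher in C-MYC, by 1.55-fold against EV (0.63, SE 0.19, adjusted p = 0.028) and by 1.60-fold against BCR-ABL1 (0.68, SE 0.19, adjusted p = 0.0352). The first call was lost without BCR-ABL1 replicate 1 (adjusted p = 0.0512) or C-MYC replicate 1 (0.109) or 2 (0.1). The second was lost without BCR-ABL1 replicate 1 (0.217) or 2 (0.126) or C-MYC replicate 1 (0.139) or 2 (0.143). Scaling by library totals also ended both calls (adjusted p = 0.0653 and 0.0511), as did limma (0.0797 and 0.0792 for the first, 0.0743 and 0.0719 for the second). Bid shares 17.7% of its exon bases with Bcl2l13 on the opposite strand, a gene that was not called in any comparison.

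Bbc3 (chr7:16308393-16318205, + strand) encodes PUMA, the main BH3-only target of p53. It was at 61.9 and 43.5 CPM in EV, 73.8 and 78.3 CPM in BCR-ABL1, and 82.3 and 54.8 CPM in C-MYC. The C-MYC libraries spanned most of the range, and both BCR-ABL1 libraries but only C-MYC replicate 1 lay above both EV libraries. No comparison of Bbc3 was called: the log2 fold change was 0.53 in BCR-ABL1 against EV (95% interval 0.01 to 1.05, adjusted p = 0.157), 0.38 in C-MYC against EV (-0.14 to 0.90, adjusted p = 0.211) and -0.15 between the oncogenes (-0.67 to 0.37, adjusted p = 0.672). Without EV replicate 1, Bbc3 was called higher than in EV with BCR-ABL1 (0.81, adjusted p = 0.0357) and with C-MYC (0.66, adjusted p = 0.0416). Without EV replicate 2 the values were 0.30 (adjusted p = 0.362) and 0.15 (0.596), and without C-MYC replicate 1 the value in C-MYC against EV was 0.06 (0.865). Its promoters hold the E-box and FOXO windows printed above.

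Of the effectors, Bax was higher with BCR-ABL1 and no difference of Bak1 was called. Bax (chr7:45461697-45466898, - strand), whose promoter window holds 2 E-boxes, was at 111 and 121 CPM in EV, 145 and 160 CPM in BCR-ABL1, and 143 and 133 CPM in C-MYC. Both oncogene conditions lay above EV in every library. Bax was 1.32-fold higher in BCR-ABL1 than in EV (0.40, SE 0.11, adjusted p = 0.0449). The call was kept without EV replicate 2 but lost without EV replicate 1 (adjusted p = 0.0769), BCR-ABL1 replicate 1 (0.146) or 2 (0.336), or C-MYC replicate 1 (0.0736) or 2 (0.0726), with scaling by library totals (0.0875), by limma (0.0909 and 0.0922) and in the fit of 4 libraries (0.0831). The differences were 0.25 in C-MYC against EV (95% interval -0.00425 to 0.50) and -0.15 between the oncogenes (-0.40 to 0.11), neither called. Gm45808 on the same strand shares 12.2% of the exon bases of Bax.

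Bak1 (chr17:27019810-27029009, - strand) was at 159 and 140 CPM in EV, 143 and 143 CPM in BCR-ABL1, and 163 and 122 CPM in C-MYC. The 3 conditions overlapped. The difference was -0.07 both in BCR-ABL1 against EV (95% interval -0.41 to 0.28) and in C-MYC against EV (-0.42 to 0.28), and between the oncogenes the interval ran from -0.35 to 0.35. Annotated copies of Ggnbp1 on the opposite strand share 7.35% and 18.2% of its exon bases.

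**Figure D3:**
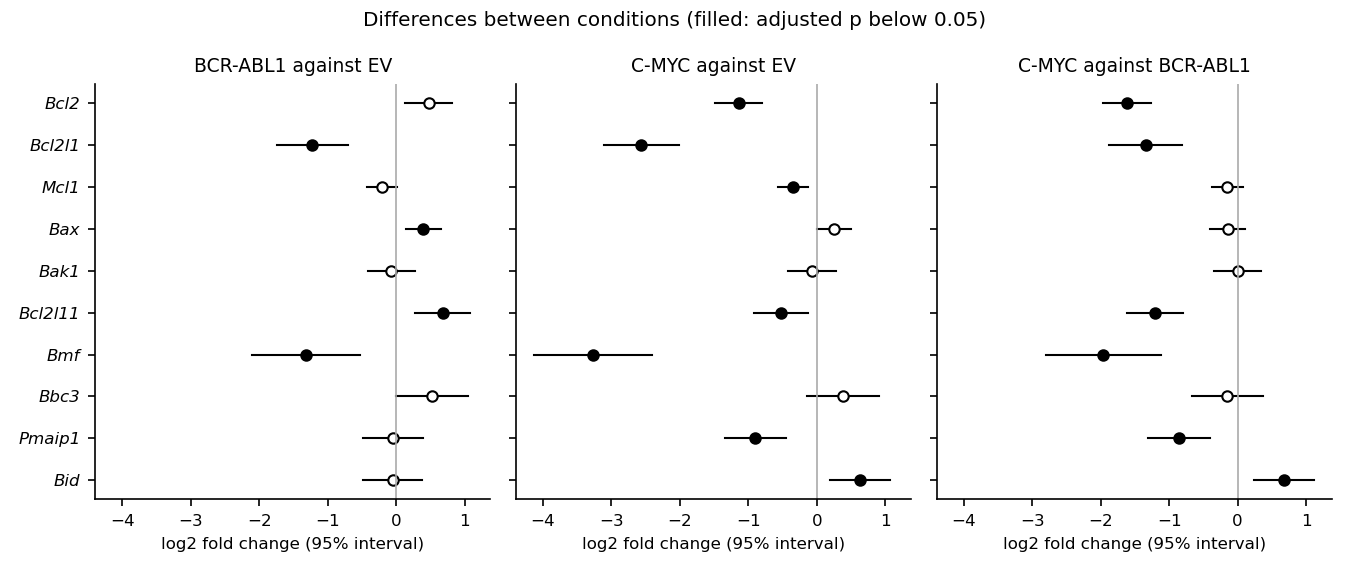
Log2 fold change of each gene in the 3 comparisons with its 95% interval, filled where the adjusted p was below 0.05. The widest differences are those of Bmf (-3.27) and Bcl2l1 (-2.56) in C-MYC against EV, and Bid is the only gene called higher in C-MYC.

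The counts of called family genes are given beside the shares over all genes tested, and the difference between them was not tested. In BCR-ABL1 against EV, 4 of 10 were called, where 17% of all genes were. Of these, 2 were higher (Bcl2l11 and Bax, background 5.08%) and 2 lower (Bcl2l1 and Bmf, background 12%). In 7 of 10 genes the libraries of the conditions did not overlap, as in 58.9% of all genes, with 4 higher (background 29.2%) and 3 lower (29.7%). The median log2 fold change of the family was -0.05 and that of all genes 0.00, and the median absolute change was 0.44 against 0.27. The count by edgeR fell to 0 without BCR-ABL1 replicate 2, with 3 genes at an unadjusted p below 0.05, where 665 of all 13237 genes tested were called. It fell to 1 without BCR-ABL1 replicate 1 (714 of 13252 genes), C-MYC replicate 1 (1759 of 13228) or C-MYC replicate 2 (1772 of 13231), and it was 1 by limma (1257 of 11012 genes with a pseudocount of 1) and in the fit of only the 4 libraries (1734 of 12617).

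In C-MYC against EV, 7 of 10 were called, where 43.1% of all genes were. Only Bid was higher (background 18.6%), and 6 were lower, namely Bcl2, Bcl2l1, Mcl1, Bcl2l11, Pmaip1 and Bmf (background 24.5%). The libraries did not overlap in 8 of 10 genes (background 70.6%), with 2 higher (31.5%) and 6 lower (39.1%). The family's median log2 fold change was -0.44 against -0.08 for all genes. Scaling by library totals moved the median of all genes to -0.19. The count of called family genes fell to 3 without C-MYC replicate 1 (3329 of 13228 genes called) or 2 (3563 of 13231) and to 4 without BCR-ABL1 replicate 1 (4563 of 13252), and Bcl2, Bcl2l1 and Bmf were the genes called under every omission. Of the 10 B cell precursor markers, 9 were lower in C-MYC than in EV as well, and their part in the result was not tested.

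In C-MYC against BCR-ABL1, which does not use the EV libraries for its means, 6 of 10 were called, where 23.4% of all genes were. Only Bid was higher (background 11.5%), and 5 were lower, namely Bcl2, Bcl2l1, Bcl2l11, Pmaip1 and Bmf (background 11.9%). The libraries did not overlap in 8 of 10 genes (background 69.9%), with 1 higher (34.5%) and 7 lower (35.4%). The family's median log2 fold change was -0.50 against 0.00 for all genes, and its median absolute change was 0.77 against 0.34. The count fell to 2 without BCR-ABL1 replicate 1 (618 of 13252 genes called) or C-MYC replicate 2 (1038 of 13231) and to 3 without C-MYC replicate 1 (1291 of 13228), and Bcl2 and Bcl2l11 were called under every omission. Of the other markers, 2 of 10 myeloid markers were higher in C-MYC, 2 of 5 tested stromal markers were lower in C-MYC, and 0 of 8 T and NK cell markers were called by edgeR (1 at an unadjusted p below 0.05, 0 by DESeq2 or limma), but 7 of 10 B cell precursor markers were lower in C-MYC. Their part in the result was not tested.

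Ratios of counts within a library do not depend on how libraries are scaled. The ratio of Mcl1 to Bcl2l1 counts was 3.17 and 2.03 in the EV libraries, 4.14 and 6.22 in those with BCR-ABL1, and 11.1 and 11.9 in those with C-MYC. It stepped up from condition to condition without overlap. The ratio of Bcl2l11 to Bcl2l1, a pro-apoptotic gene over a pro-survival gene, was 1.10 and 0.518 in the EV libraries, 2.67 and 2.98 in those with BCR-ABL1, and 3.08 and 3.07 in those with C-MYC, so that both oncogene conditions lay above EV. The ratio of Bcl2l11 to Bcl2 overlapped between EV (2.28 and 1.65) and BCR-ABL1 (2.85 and 1.81) and between BCR-ABL1 and C-MYC (3.29 and 2.77). The ratio of Mcl1 to Bcl2 was lowest in BCR-ABL1 (4.43 and 3.78), intermediate in EV (6.53 and 6.48) and highest in C-MYC (11.9 and 10.7). The ratio of Bcl2 to Bcl2l1 was 0.485 and 0.314 in the EV libraries, 0.936 and 1.65 in those with BCR-ABL1, and 0.937 and 1.11 in those with C-MYC. That of Bax to Bak1 was 0.699 and 0.864 in the EV libraries, lower than the 1.02 and 1.12 with BCR-ABL1 and the 0.878 and 1.09 with C-MYC. With 2 libraries per condition these ratios were not tested, and they compare counts, not molecules, since the genes differ in length.

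**Figure D4:**
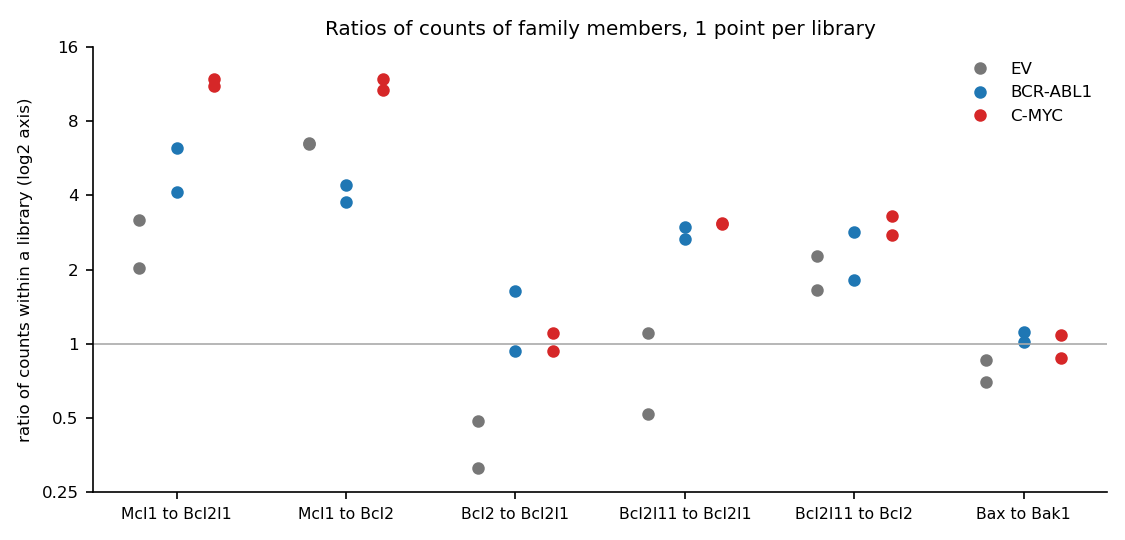
Ratio of the counts of 2 genes within a library (log2 axis), with 1 point per library and a line at a ratio of 1. The ratio of Mcl1 to Bcl2l1 rises from 2.03 and 3.17 in EV to 11.1 and 11.9 in C-MYC, and the ratio of Bax to Bak1 is lower in EV (0.699 and 0.864) than in the oncogene libraries (0.878 to 1.12).

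Levels of different genes were compared only per length, as CPM per kilobase of annotated exon and as the deposited FPKM. By CPM per kilobase, Mcl1 was the highest of the 10 in each condition, with a mean of 123 ± 0.764 with EV, 107 ± 7.18 with BCR-ABL1 and 96.4 ± 1.79 with C-MYC (mean ± SD, n = 2). Bax and Bak1 came next in each condition, at 73.6 ± 4.09 and 62.1 ± 5.81 with EV, 96.9 ± 6.64 and 59.3 ± 0.102 with BCR-ABL1, and 87.6 ± 4.56 and 59.3 ± 11.96 with C-MYC, and the libraries of neighbouring genes among these 3 did not overlap. In EV these were followed by Bcl2l1, Bbc3, Bmf, Bcl2l11 and Pmaip1, in which each neighbour overlapped with the next, and then by Bid (8.63 ± 2.36) and Bcl2 (7.05 ± 0.00156), which overlapped with each other. In BCR-ABL1 the order went on with Bbc3, Bcl2l11, Bcl2l1, Pmaip1, Bcl2, Bid and Bmf, with overlap between Bcl2l1 and Pmaip1, between Bcl2 and Bid and between Bid and Bmf. In C-MYC it went on with Bbc3, Bid, Bcl2l11, Pmaip1, Bcl2l1, Bcl2 and Bmf (1.88 ± 0.239), without overlap between neighbours.

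The deposited FPKM gave another order. The gene with the highest mean was Bcl2l1 in EV (136 ± 42.1), Bcl2l11 in BCR-ABL1 (179 ± 25.1) and Bbc3 in C-MYC (95.7 ± 24.9), but Bcl2l1 overlapped with Mcl1 and Bcl2l11 in EV, and Bbc3 with Mcl1 in C-MYC. Bmf was lowest in BCR-ABL1 (10.1 ± 1.55) and C-MYC (2.49 ± 0.22). The measures differ by gene. The ratio of mean FPKM to mean CPM (by library totals) per kilobase was taken over the 6 libraries. Divided by its median over genes averaging 50 counts or more, it was 7.02 for Bcl2 and 4.54 for Bcl2l11. For Bax it was 0.572 and for Mcl1 0.619. The lengths that FPKM and counts imply together were 837 bases for Bcl2 and 1133 for Bcl2l11, where the annotation has 9157 and 8029 exon bases, while for Mcl1 they were 3543 against 3418. Annotated over implied length was 10.9 for Bcl2 and 0.965 for Mcl1. Unlike the ratios above, these values were not divided by the median over genes, so their baseline differs. How the FPKM of several transcripts were joined into 1 value per gene is not given in the sources used here. The order of levels between genes therefore rests on the length used, whereas the differences of 1 gene between conditions do not need a length.

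**Figure D5:**
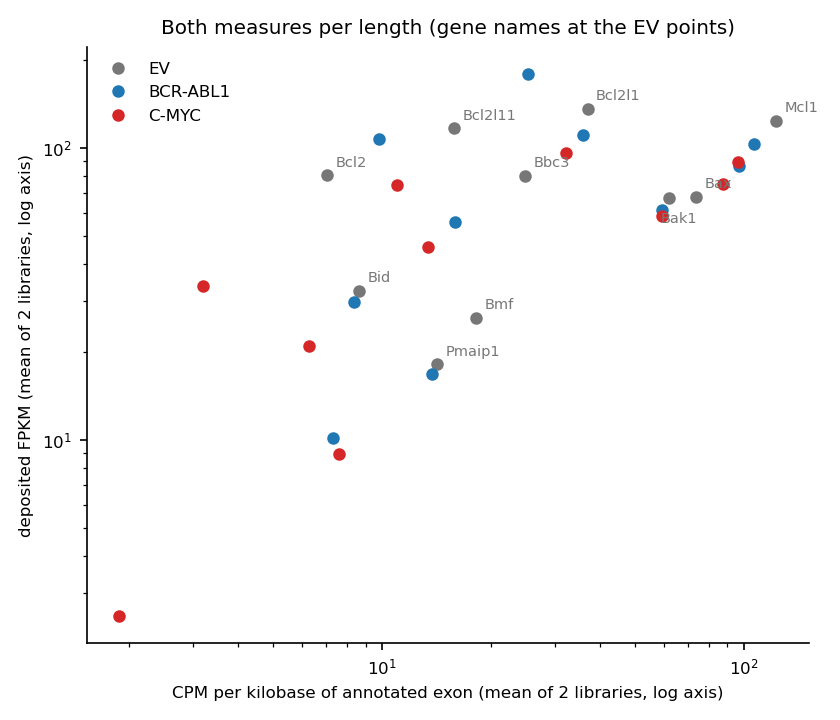
Mean deposited FPKM against mean CPM per kilobase of annotated exon (both log axes) for the 10 genes in 3 conditions, with names at the EV points. Bcl2 and Bcl2l11 lie far to the left of Mcl1, Bax and Bak1 at similar FPKM, and Bmf in C-MYC is lowest on both axes.

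Summed by role, the pro-survival level was highest in EV and lowest in C-MYC by both measures. Bcl2, Bcl2l1 and Mcl1 summed to 160 and 174 CPM per kilobase with EV, 129 and 136 with BCR-ABL1, and 107 and 104 with C-MYC, and to 309 and 373, 255 and 276, and 142 and 146 by FPKM. The share of Mcl1 in that sum was highest in C-MYC by both measures. It was 36.7% ± 4.45 with EV, 38.7% ± 0.666 with BCR-ABL1 and 62.0% ± 0.777 with C-MYC by FPKM, and 73.8% ± 5.07, 80.6% ± 2.08 and 91.1% ± 0.0282 by CPM per kilobase (SD, n = 2). The effectors summed to 137 and 135 CPM per kilobase with EV, 151 and 161 with BCR-ABL1, and 159 and 135 with C-MYC. The 5 BH3-only genes summed to 96.6 and 66.6 CPM per kilobase with EV, 92.3 and 88.9 with BCR-ABL1, and 73.5 and 58.8 with C-MYC, with overlap between EV and the others. By FPKM the BH3-only sum was 311 and 236 with EV, lower than the 359 and 332 with BCR-ABL1, and 247 and 208 with C-MYC, which overlapped with EV. Within that sum, by CPM per kilobase, the share of Bbc3 was 30.5% ± 0.417 with EV, 39.6% ± 2.73 with BCR-ABL1 and 48.3% ± 6.27 with C-MYC, while that of Bmf was 21.4% ± 6.62, 8.06% ± 1.10 and 2.85% ± 0.086.

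The relatives of these genes were measured from a list of 14 other BCL2 homologs, of which 8 passed the filter. Against EV, 1 was higher and 3 lower in BCR-ABL1, 1 was higher and 4 lower in C-MYC, and between the oncogenes 1 was lower in C-MYC, with median log2 fold changes of -0.25, -0.43 and -0.34. In either direction, 17%, 43.1% and 23.4% of all genes were called in these comparisons, and 12%, 24.5% and 11.9% were called lower. Bok, an effector homolog, was the gene that rose with both oncogenes. It was at 3.88 and 2.84 CPM in EV, 17.3 and 14.7 CPM in BCR-ABL1, and 11.0 and 6.69 CPM in C-MYC, which is 4.77-fold higher in BCR-ABL1 (2.25, SE 0.30, adjusted p = 0.00273) and 2.63-fold higher in C-MYC (1.40, SE 0.30, adjusted p = 0.0074). Of the 4 listed pro-survival A1 genes, Bcl2a1b, Bcl2a1d and Bcl2a1a were lower than in EV with both oncogenes, and Bcl2a1c had at most 1 count in any library and was not tested. Bcl2a1b had 196 and 285 counts in EV, 26 and 35 counts in BCR-ABL1 and 34 and 120 counts in C-MYC (-2.96 and -1.60 against EV, adjusted p = 0.00924 and 0.0309). Bcl2a1d had 87 and 65 counts in EV and 1 to 7 elsewhere (-3.76 and -4.18, adjusted p = 0.00531 and 0.00161). Bcl2a1a had 29 and 40 counts in EV and at most 2 elsewhere, which against 3 counts per library is at least 11.3-fold lower in BCR-ABL1 and at least 11.1-fold lower in C-MYC. The A1 copies are nearly identical, so the reads may have been split between them and each value is uncertain. A1 is also expressed in myeloid cells, whose markers were lower in the same libraries, and their part in the result was not tested. Bcl2l2, which encodes the pro-survival BCL-W, was lower in C-MYC than in EV (-0.66, adjusted p = 0.0179), and Bcl2l12 was lower in C-MYC than in BCR-ABL1 (-0.64, adjusted p = 0.045).

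Downstream of the mitochondria, 0 of 10 apoptosome and caspase genes were called in BCR-ABL1 against EV by edgeR, where 17% of all genes were. At an unadjusted p below 0.05 there was 1, Casp9 (-0.46, adjusted p = 0.122), and DESeq2 called 0 and limma 0 or 1 with the larger or smaller pseudocount. In C-MYC against EV, 4 were higher and 4 lower, where 18.6% and 24.5% of all genes were. The 4 that rose were Endog (1.98, SE 0.26, adjusted p = 0.00108), Htra2 (1.49, SE 0.16, adjusted p = 0.000524), Cycs, the gene of cytochrome c (0.90, SE 0.19, adjusted p = 0.00703), and Aifm1 (0.71, SE 0.16, adjusted p = 0.00926). Those that fell included Casp6 (-0.82, adjusted p = 0.00893), Apaf1, the scaffold of the apoptosome (-0.69, adjusted p = 0.0356), and Casp9 (-0.52, adjusted p = 0.048). Between the oncogenes 3 were higher in C-MYC (Endog, Htra2 and Cycs) and 1 lower (Casp6), where 11.5% and 11.9% of all genes were. Of 6 outer membrane channels and partners, 2 were higher in BCR-ABL1 than in EV and 4 in C-MYC than in EV, and 2 were higher in C-MYC than in BCR-ABL1. The shares of all genes called higher in these comparisons were 5.08%, 18.6% and 11.5%. The channel genes Vdac1 and Vdac2 rose in C-MYC against EV by 0.86 (adjusted p = 0.000787) and 0.80 (adjusted p = 0.000653), with Vdac3 at 0.51 (adjusted p = 0.00625), and Mtch2, which encodes a receptor for BID on the outer membrane, rose by 0.64 (adjusted p = 0.00231).

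Inhibitors of apoptosis and death receptor genes were counted against the shares of all genes called lower, which were 12% in BCR-ABL1 against EV, 24.5% in C-MYC against EV and 11.9% between the oncogenes. Of 5 inhibitors, 3 were lower in C-MYC than in EV and 3 lower than in BCR-ABL1, and 1 was lower in BCR-ABL1 than in EV. Birc3 fell stepwise, from 113 and 83.0 CPM in EV to 66.8 and 58.6 CPM in BCR-ABL1 (-0.65, adjusted p = 0.038) and 36.5 and 32.6 CPM in C-MYC (-1.51, adjusted p = 0.000653). Birc2 and Xiap, the latter an inhibitor of caspases, fell in C-MYC against EV by 0.96 (adjusted p = 0.00223) and 0.55 (adjusted p = 0.0133) on the log2 scale. Of 8 death receptor genes, 3 were lower in BCR-ABL1 and 5 in C-MYC than in EV, and between the oncogenes Tnfrsf1a was higher and Casp8 lower in C-MYC. The receptor gene Fas was at 12.4 and 4.97 CPM in EV, 2.18 and 2.37 CPM in BCR-ABL1 (-1.93, adjusted p = 0.0207) and 1.01 and 0.853 CPM in C-MYC (-3.21, adjusted p = 0.00164). Tnfrsf1a, another receptor gene, was lower than in EV in BCR-ABL1 (-3.07, adjusted p = 0.00184) and C-MYC (-1.34, adjusted p = 0.0137). Myeloid markers were lower than in EV in the same libraries, and their part in these differences was not tested. Casp8, whose product cuts BID, was lower in C-MYC than in EV (-0.48, adjusted p = 0.0157) and than in BCR-ABL1 (-0.85, adjusted p = 0.0037). Cflar, an inhibitor of caspase-8, was lower than in EV with BCR-ABL1 (-0.75, adjusted p = 0.021) and C-MYC (-0.93, adjusted p = 0.00364), and Ripk1 was lower with C-MYC (-0.67, adjusted p = 0.0148).

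Genes that share regulators with the family were counted in the same way. Of 13 p53 targets outside the family, 1 was higher and 1 lower in BCR-ABL1 than in EV, 0 higher and 5 lower in C-MYC than in EV, and 0 higher and 6 lower in C-MYC than in BCR-ABL1, with median log2 fold changes of 0.17, -0.47 and -0.59. Of all genes, 17%, 43.1% and 23.4% were called in these comparisons in either direction, and 12%, 24.5% and 11.9% were called lower. In C-MYC against EV, 8 of the 13 were not called, among them Cdkn1a (-0.50, adjusted p = 0.0607), Mdm2 (-0.10, adjusted p = 0.482) and Aen (0.34, adjusted p = 0.0694). Zmat3 was the one that rose in BCR-ABL1 against EV (0.93, adjusted p = 0.0109), and Plk2 fell there (-1.97, adjusted p = 0.00372). In C-MYC against EV, Trp53inp1 fell by 1.52 (adjusted p = 0.000175), Perp by 2.44 (adjusted p = 0.0152), Plk2 by 1.67 (adjusted p = 0.00253), Sesn1 by 0.84 (adjusted p = 0.0206) and Phlda3 by 0.79 (adjusted p = 0.0181) on the log2 scale.

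Of 5 genes for FOXO and STAT5 factors, 0 were called by edgeR in BCR-ABL1 against EV, with 1 at an unadjusted p below 0.05 (Foxo4, -0.44, adjusted p = 0.129) and 0 called by DESeq2 or limma. The share of all genes that edgeR called there was 17%. Foxo1 was lower in C-MYC than in EV (-0.96, adjusted p = 0.0115) and than in BCR-ABL1 (-1.001, adjusted p = 0.0181), and Foxo4 was lower in C-MYC than in EV (-0.55, adjusted p = 0.0358). Of 7 genes whose transcription follows STAT5, Cish, a feedback inhibitor of cytokine signals, was at 50.5 and 99.0 CPM in EV, 233 and 211 CPM in BCR-ABL1, and 62.9 and 51.9 CPM in C-MYC. It was the 1 member of this list called higher in BCR-ABL1 than in EV (1.57, SE 0.28, adjusted p = 0.00892), where Pim2 was lower (-0.79, adjusted p = 0.0393). In C-MYC against EV, 3 of 7 were lower, where 24.5% of all genes were. These were Pim2 (-1.72, adjusted p = 0.000897), Socs3 (-1.57, adjusted p = 0.00114) and Socs1 (-1.50, adjusted p = 0.00616). Cish was not called in C-MYC against EV (-0.38, adjusted p = 0.298). Between the oncogenes 5 of 7 were lower in C-MYC, namely Cish (-1.95, adjusted p = 0.00385), Socs3 (-2.19, adjusted p = 0.000955), Socs1 (-1.87, adjusted p = 0.00593), Pim1 (-1.15, adjusted p = 0.0308) and Pim2 (-0.93, adjusted p = 0.0198). The share of all genes called lower there was 11.9%. Bcl2 and Bcl2l1 were lower in C-MYC in that comparison as well. In BCR-ABL1 against EV, where Cish was higher, Bcl2l1 was lower (-1.22) and Bcl2 was not called (0.48). A link of either gene to STAT5 was not tested.

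Finally, the genes whose pattern over the 6 libraries was most like that of a family member were looked up among the 10622 genes that averaged 50 counts or more, by Pearson's r of log2 CPM. With 6 libraries in 3 conditions, high values are frequent, and 164 genes had an r above 0.95 with Bcl2, 90 with Mcl1 and 108 with Bcl2l11. The 3 most like Bcl2 were 1700025G04Rik (0.9997), Lamtor4 (0.997) and Nab1 (0.994). Those most like Mcl1 were Tnfrsf18 (0.992), Stk3 (0.987) and Nudt7 (0.986), and those most like Bcl2l11 were Zfp280d (0.993), Ptbp3 (0.992) and Spsb1 (0.991).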

How the data were processed

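Poly(A) RNA-seq of 6 libraries was analysed, 2 each for EV, BCR-ABL1 and C-MYC, with groups and replicate numbers taken from the sample labels. The authors deposited raw counts per gene symbol and FPKM values. Per the submitters' processing notes and the paper's methods, the authors aligned reads to GRCm38/mm10 with STAR 2.5.0 and calculated FPKM with StringTie 1.3.0. The counting program and its strand setting are not given in the sources used here. The ChIP-seq libraries were not analysed here.

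Counts were tested with the quasi-likelihood test of edgeR 4.0.16 in R 4.3.3, with all 6 libraries in 1 model, filterByExpr, TMM scaling and Benjamini-Hochberg adjustment over 12786 genes, called at an adjusted p below 0.05. DESeq2 1.42.0 and limma 3.58.1 on log2(FPKM + 1) and log2(FPKM + 0.1) were alternatives, limma for genes with an FPKM of at least 1 in at least 2 libraries. Exon lengths, positions and overlaps are from GENCODE M21 (GRCm38). The common biological coefficient of variation was 0.151, so the spread between replicates limits precision more than the depth, between 20687092 and 24095955 counts per library, does.

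The members and lists were chosen with earlier results of these data known. All 10 members are named, and from each other list up to 6 members called in any comparison, those with the largest absolute log2 fold change. Casp9 and the markers and uncalled genes given as examples of a list were named outside this rule, after their values were seen.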

Additional observations from a re-analysis of the deposited data

How the results depend on the processing

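Of the alternatives other than leaving out a library, 213 values of single family genes kept their direction and side of the threshold, 19 lost the call, 4 gained it and 4 changed sign, all 4 for Bak1 between the oncogenes, where the log2 fold change lies near 0 (0.0244 with DESeq2 size factors, 0.00611 without a filter, 0.0257 with DESeq2's test and 0.000953 with only the 4 libraries compared). In BCR-ABL1 against EV, 1 family gene was called by limma with either pseudocount and by the fit of only the 4 libraries, and limma called 1257 genes in all with a pseudocount of 1 and 1251 with 0.1. The fit of only the 4 libraries called 4538 genes in C-MYC against BCR-ABL1. By CPM per kilobase the share of Mcl1 in the pro-survival level was 73.8%, 80.6% and 91.1% in EV, BCR-ABL1 and C-MYC. Scaling by library totals was added after seeing the data.

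With each library left out in turn, and the lone library of a condition assumed to vary like the others, family genes called ranged from 0 to 4 in BCR-ABL1 against EV, 3 to 7 in C-MYC against EV and 2 to 6 in C-MYC against BCR-ABL1, and all genes called from 665 to 2729, 3329 to 6077 and 618 to 4519. Log2 fold changes that changed sign ranged in BCR-ABL1 against EV from -0.30 to 0.27 for Pmaip1, -0.30 to 0.26 for Bid and -0.16 to 0.0363 for Bak1, in C-MYC against EV from -0.28 to 0.13 for Bak1, and in C-MYC against BCR-ABL1 from -0.47 to 0.11 for Bbc3 and -0.22 to 0.19 for Bak1. A lone EV library was assumed to vary like the oncogene libraries, although the EV libraries differed most from each other.

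The libraries share replicate numbers, but no source says that a number marks a shared culture or day. Deviations of libraries with the same number correlated at 0.273, 0.236 and 0.204. With a replicate block, 6, 7 and 6 family genes and 3224, 6631 and 4278 of all genes were called in the 3 comparisons, and Bcl2 (adjusted p = 0.0253) and Bbc3 (0.0405) were added in BCR-ABL1 against EV by edgeR. The causes of these changes were not tested. With libraries left out, single genes outside the family were not examined.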
